A study of Mus musculus with 6 samples.

Results

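The 5 genes Acta2, Tagln, Myh11, Cnn1 and Myl9 encode the contractile apparatus of vascular smooth muscle. They were taken by symbol from a table of 24421 gene rows, and all 5 were found. Of these, 3 (Acta2, Tagln and Myl9) reached the expression level required for the test between genotypes, at least 1 FPKM in at least 3 of 6 libraries, whereas Myh11 and Cnn1 did not. FPKM is the number of sequenced fragments scaled to the length of the gene and the depth of the library.

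Smooth muscle cells wrap arteries and arterioles and set their diameter. In these cells thin filaments of smooth muscle alpha-actin (Acta2), with the actin-binding proteins transgelin (Tagln, also called SM22-alpha) and calponin (Cnn1), slide against thick filaments of smooth muscle myosin heavy chain (Myh11). Phosphorylation of the regulatory light chain (Myl9) by myosin light chain kinase switches the motor on, and transcription of the set is driven by serum response factor (SRF) with its coactivator myocardin. In the retina the smooth muscle coat lies on the arterial side, while capillaries and veins are covered mainly by pericytes, the other kind of mural cell.

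RNA was sequenced from preparations of endothelial cells of C57BL/6 mouse retinas at postnatal day 7. The 3 control libraries came from Anxa3 fl/fl pups and the 3 mutant libraries from Anxa3 fl/fl;Tie2-Cre pups, so both groups carry floxed alleles of annexin A3 and only the mutants carry Cre. The study looked for genes that loss of Anxa3 affects and that could relate to crossings of arteries and veins. Tie2-Cre acts in endothelial and blood-lineage cells, and smooth muscle is not among its known targets. Because no control carries Cre, its own effect and the effect of the deletion cannot be told apart. How many pups went into each library is not stated in the labels, and p-values therefore reflect only the spread between these libraries, which may be technical. The labels also letter the libraries, A, C and D for control replicates 1, 2 and 3 and B, E and F for mutant replicates 1, 2 and 3, without saying what the letters stand for.

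Anxa3, the targeted gene, was lower in each mutant library than in each control library. Replicates 1, 2 and 3 gave 18.7, 17.7 and 43.4 FPKM among controls and 9.78, 12.5 and 15.1 FPKM among mutants, a log2 difference of -0.93 (limma adjusted p = 1, two-sided exact permutation p = 0.1, the smallest that 3 against 3 libraries allow). The deposited values correspond to between 21386128 and 30904206 reads per library. Photoreceptor transcripts remained in all preparations, with a summed level of 8 markers of 3202 to 4604 FPKM among controls and 3744 to 5006 FPKM among mutants. Control replicate 3 stood apart, with 2.09 times the endothelial marker level and 1.71 times the pericyte marker level of control replicates 1 and 2, and 0.721 times their photoreceptor level.

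The contractile genes were at low to moderate levels, and Myh11 and Cnn1, the most selective for differentiated smooth muscle, were the lowest. Myl9 was highest with a mean of 12.5 FPKM over the 6 libraries, followed by Acta2 at 4.76 FPKM, Tagln at 2.06 FPKM, Myh11 at 0.878 FPKM and Cnn1 at 0.0446 FPKM. This order held in 6 of 6 libraries. Ranges over libraries did not touch between Myl9 and Acta2, Acta2 and Tagln, or Myh11 and Cnn1, whereas the highest Myh11 value, 1.44 FPKM, lay above the lowest Tagln value, 1.35 FPKM. Myl9 lay above 52.1% of tested genes, Acta2 above 24.8% and Tagln above 9.65%. Cnn1, a marker of differentiated smooth muscle, was supported by 15 reads in all 6 libraries together, so the label of arterial smooth muscle rests here on Acta2, Tagln, Myh11 and Myl9, and Acta2, Tagln and Myl9 are also found in pericytes or other cells. In these bulk libraries the number of cells of a type and the RNA per cell cannot be told apart.

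**Figure D1:**
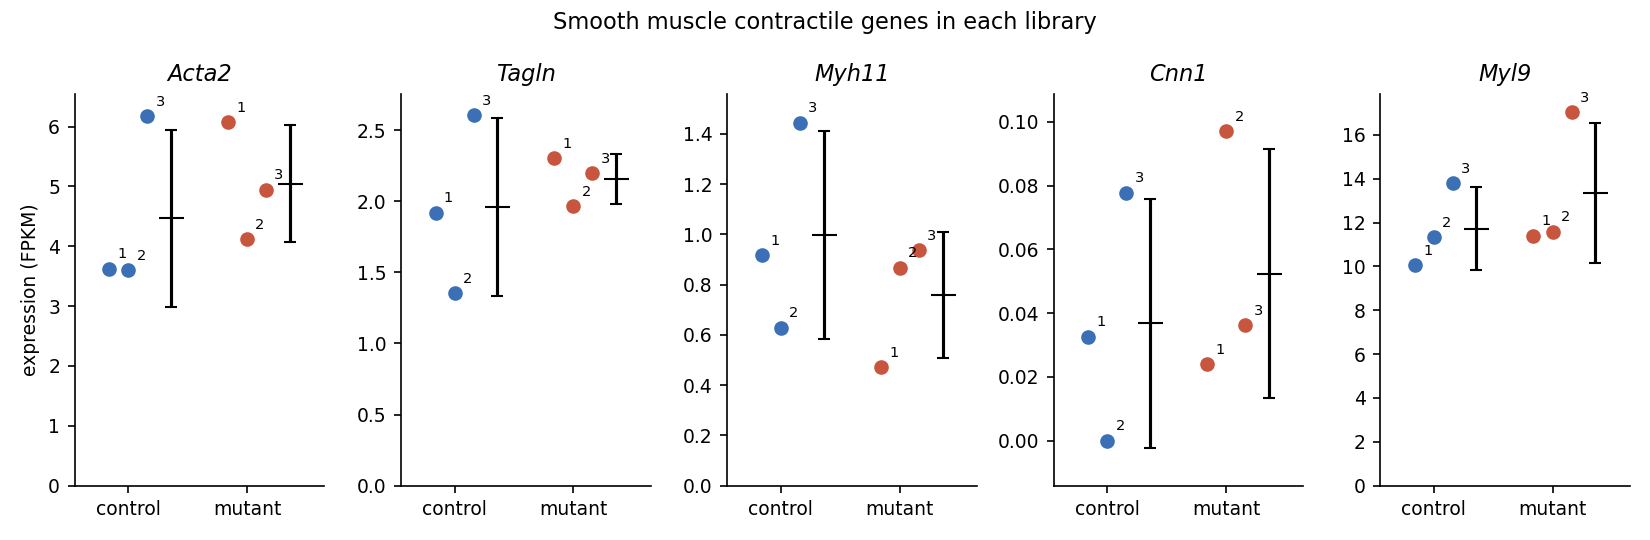
Expression of the 5 contractile genes in FPKM, 1 panel per gene with its own axis. Points are libraries, numbered by replicate, in control (blue) and mutant (red), and the bars to their right are the mean ± SD of 3 libraries; the groups overlap in all 5 panels, and control replicate 3 is the highest library for Acta2, Tagln and Myh11.

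Promoters of 3 of the 5 genes were in the RefSeq sequence table, those of Acta2, Myl9 and Cnn1. The 250 bases before the RefSeq transcription start of each were searched for CArG boxes, the sequences that SRF binds, and those around the matches of Acta2 and Myl9, the members with the most reads, are shown. The CArG box is CC, then 6 bases that are each A or T, then GG, and reads the same way on both strands. Capitals mark each match that has at most 1 G or C among those 6 bases, and the build is GRCm38.p6. GENCODE M21 places the Acta2 and Myl9 starts further upstream, so 217 of the 250 bases searched for Acta2, including both of its matches, lie inside the gene in that annotation. Whether they fall in an exon or an untranslated region there was not examined. For Acta2 the shown stretches are therefore cut to 30 bases, chr19:34255438-34255467 and chr19:34255388-34255417 on the minus strand, and for Myl9 the stretch chr2:156775214-156775419 on the plus strand ends at the GENCODE start.
Acta2, first match: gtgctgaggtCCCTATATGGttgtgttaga
Acta2, second match: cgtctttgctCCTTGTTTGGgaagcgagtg
Myl9: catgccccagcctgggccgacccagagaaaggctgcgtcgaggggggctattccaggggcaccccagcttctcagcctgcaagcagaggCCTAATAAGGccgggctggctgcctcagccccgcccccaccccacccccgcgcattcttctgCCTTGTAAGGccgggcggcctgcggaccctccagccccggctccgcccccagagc
Acta2 had a match from base -84 to -75 and another from -34 to -25 relative to the RefSeq start, each with 1 G or C among the 6 bases. Myl9 had an exact CArG box from -161 to -152 and a match with 1 G or C from -99 to -90. The same length before the Cnn1 start held neither form. Exact boxes were present in 1.47% of all 32851 promoters of this length and exact or near matches in 8.59%. Counted by gene, the shares were 1.62% and 9.78% of 27025 genes. An exact or near match was present in 4 of 14 filament partner genes with an available promoter (Myl6, Synm, Pdlim3 and Vcl). The same held for 1 of 13 contraction switch genes, 3 of 6 regulators and 6 of 13 isoform relatives of the members. Among markers it held for 4 of 11 of skeletal muscle, 2 of 9 endothelial and 0 of 9 of pericytes. Such numbers are too small to set against the share over all genes. The matches are of letters and were not tested for binding.

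Acta2, the main actin of smooth muscle thin filaments, did not differ between genotypes beyond the spread of the libraries. Control libraries, in order of replicate number, gave 3.63, 3.598 and 6.17 FPKM, and mutant libraries 6.07, 4.12 and 4.95 FPKM, from 224 to 411 reads. All mutant libraries lay above control replicates 1 and 2 and below control replicate 3. The control mean was 4.47 ± 1.48 FPKM and the mutant mean 5.05 ± 0.980 FPKM (SD, n = 3 each). The difference on the log2(FPKM + 1) scale was 0.17 with a standard error of 0.208 (limma adjusted p = 1, exact permutation p = 0.6), and its 95% interval ran from 0.803-fold to 1.57-fold. The coefficient of variation was 33.1% in controls, against 5.73% from read counting alone, so the libraries spread more widely than read counting gives. Acta2 spans bases 34241090 to 34255590 of chromosome 19 (minus strand), with 9 exons in the principal transcript (GENCODE M21, GRCm38).

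Tagln, an actin-binding protein of the calponin family that is abundant in contractile smooth muscle, ranked the libraries exactly as Acta2 did, in 6 of 6 positions. The pericyte markers Rgs5 and Pdgfrb gave the same order except that control replicates 1 and 2 changed places. Acta2 measured 3.63 and 3.598 FPKM in those libraries, a step within counting error. In order of replicate number Tagln stood at 1.92, 1.35 and 2.61 FPKM among controls and at 2.31, 1.96 and 2.199 FPKM among mutants, from 52 to 107 reads. The mutants again fell between control replicate 3 and the other 2 controls, although all 3 mutant values lay within the exact Poisson 95% interval of control replicate 1, 1.55 to 2.35 FPKM, which covers counting error only. Means were 1.96 ± 0.627 and 2.16 ± 0.174 FPKM (SD, n = 3 each). The log2 difference was 0.11 (standard error 0.179, limma adjusted p = 1), with a 95% interval from 0.812-fold to 1.44-fold. The mutant libraries varied by 8.09%, no more than the 10.7% that counting alone gives, and the controls by 32.0%. Tagln spans bases 45929619 to 45936058 of chromosome 9 (minus strand), and up to 404 bases of its exons overlap the antisense gene Gm48529 and 108 bases the gene Pcsk7. Pcsk7, named because of this overlap, measured 16.9 to 22.0 FPKM, and strand use in counting is not given, so the Tagln level is uncertain to that extent.

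Myh11, the heavy chain that defines smooth muscle thick filaments, was under the filter and followed another order. Replicates 1, 2 and 3 read 0.918, 0.629 and 1.44 FPKM among controls and 0.472, 0.867 and 0.938 FPKM among mutants. Mutant replicate 1, the highest mutant library for Acta2, was the lowest of all 6 for Myh11, with 66 reads against 101 to 248 in the others. Its exact Poisson 95% interval, 0.365 to 0.601 FPKM, covers counting error only and ended below the value of each other library. The control mean was 0.997 ± 0.413 FPKM and the mutant mean 0.759 ± 0.251 FPKM (SD, n = 3 each). In a fit without the filter the log2 difference was -0.17 with a standard error of 0.178 (limma adjusted p = 1), and its 95% interval ran from 0.659-fold to 1.19-fold in FPKM + 1, a scale that understates the change of a gene near 1 FPKM. The difference was -0.33 with a pseudocount of 0.1 and -0.32 with voom on the recovered reads, and it was -0.018 without control replicate 3 and -0.050 without mutant replicate 1. Acta2 exceeded Myh11 by 12.9 times in mutant replicate 1 and by 3.95 to 5.72 times in the other libraries. Myh11 spans bases 14194535 to 14291372 of chromosome 16 (minus strand), with 41 exons.

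Cnn1, which binds actin and tropomyosin and restrains the myosin motor, was at the limit of detection. Control libraries held 2, 0 and 4 reads, which is 0.0326, 0 and 0.0778 FPKM. Mutant libraries held 1, 6 and 2 reads, which is 0.0239, 0.0970 and 0.0362 FPKM. The 0 in control replicate 2 allows up to 0.0624 FPKM, the worth of 3 reads, and no difference between the groups was detectable at this depth. With 6 reads in all controls and 9 in all mutants, counting error alone gives a variation of 70.9% and 58.3%. Cnn1 spans bases 22099216 to 22109630 of chromosome 9 (plus strand), with 7 exons.

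Myl9, the regulatory light chain, was the most abundant member and was highest in mutant replicate 3. Controls read 10.1, 11.3 and 13.8 FPKM and mutants 11.4, 11.6 and 17.0 FPKM in order of replicate number, from 260 to 513 reads. Control replicate 3 lay above mutant replicates 1 and 2, so the groups overlap. Means were 11.7 ± 1.91 and 13.3 ± 3.20 FPKM (SD, n = 3 each). The log2 difference was 0.16 (standard error 0.176, limma adjusted p = 1), with a 95% interval from 0.843-fold to 1.48-fold. Without mutant replicate 3 the difference was -0.016. Myl9 spans bases 156775420 to 156781658 of chromosome 2 (plus strand), with 4 exons.

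Across the 5 genes, none passed at a limma adjusted p under 0.05 and no gene's groups were free of overlap. Over all 13622 tested genes 0% passed that threshold, 1.21% had an unadjusted p under 0.05 and 4.35% had groups without overlap (2.79% with all mutants above and 1.56% with all below), so the absence of calls is shared with the whole table, and voom on the recovered reads called 0 genes too. Acta2, Tagln, Cnn1 and Myl9 had a positive difference and Myh11 a negative one, where 47.5% of tested genes had a positive difference and the median over all of them was -0.01. Each member's 95% interval included 0, and none had an unadjusted p under 0.05.

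**Figure D2:**
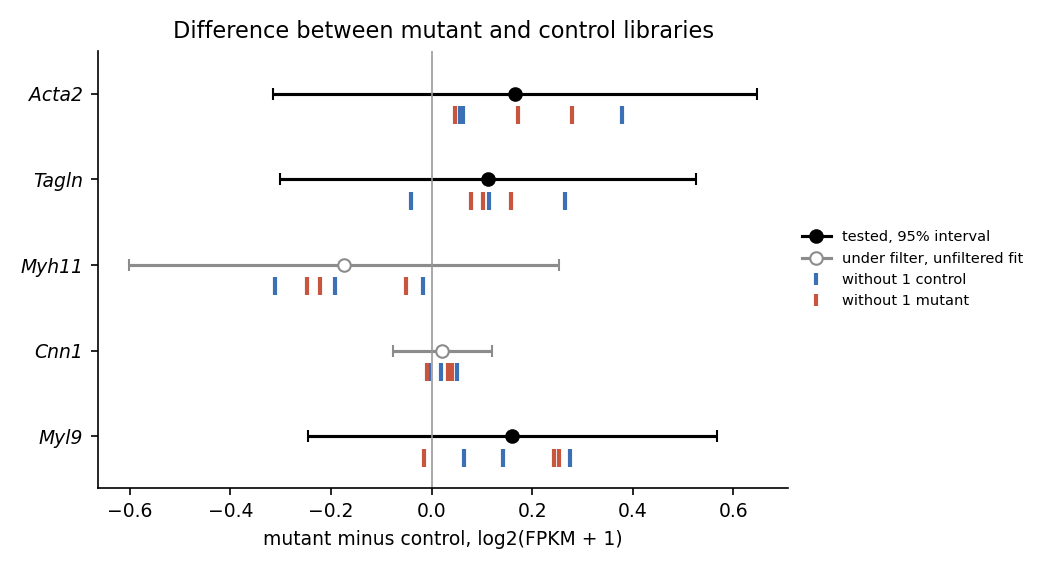
Mutant minus control difference of each gene on the log2(FPKM + 1) scale. Circles with bars are the fitted difference and its 95% limma interval (open and grey for Myh11 and Cnn1, which were under the filter), and ticks below are the differences with 1 control (blue) or 1 mutant (red) library left out; each interval spans 0, and ticks cross 0 for Tagln, Cnn1 and Myl9.

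Control replicate 3 was the highest control library for each member. It held 1.71 times the Acta2, 1.59 times the Tagln, 1.87 times the Myh11 and 1.29 times the Myl9 level of the mean of control replicates 1 and 2. Without it the Acta2 difference was 0.38 and that of Tagln 0.27, both with limma adjusted p = 0.999 (for Acta2 the range over alternatives was 0.368 to 1). The Tagln difference was -0.042 when control replicate 2 was omitted instead. The letters were also split into A to C and D to F. This split is not in the labels and is no evidence of batches. Among the libraries lettered A to C, Acta2 in the lone mutant lay 0.62 above the mean of the controls on the log2(FPKM + 1) scale. Among those lettered D to F the mutants lay 0.38 below the lone control. Tagln did likewise, at 0.33 and -0.23, and so did the pericyte level (0.30 and -0.46), Des (0.52 and -0.36), Rgs5 (0.46 and -0.54) and Pdgfrb (0.54 and -0.77). Myh11 was lower in mutants in both sets, at -0.26 and -0.36, with mutant replicate 1 its lowest library and control replicate 3 its highest. Myl9 was higher in both, at 0.09 and 0.03. With 1 library of a genotype beside 2 of the other in each set, no test within a set was made.

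The pericyte marker level, like Acta2, was highest in control replicate 3, but it lacked the high value of Acta2 in mutant replicate 1. There Acta2 lay 0.32 above its mean over the 6 libraries on the log2(FPKM + 1) scale, and the pericyte level 0.017 above. Single markers differed in that library: Rgs5 lay 0.18 and Pdgfrb 0.14 above their means. Vtn was at its highest there (28.0 FPKM) and Higd1b at its lowest (8.73 FPKM). The pericyte marker level, a mean over 12 genes on the log2(FPKM + 1) scale, was 3.33, 3.38 and 4.13 in the controls by replicate number and 3.65, 3.59 and 3.74 in the mutants. The 12 genes include Notch3, the Notch receptor of mural cells, so the level does not set pericytes apart from smooth muscle. Rgs5, a pericyte-enriched regulator of G-protein signalling, exceeded Acta2 by 28.6 to 36.8 times in FPKM over the 6 libraries. Relative to the pericyte level, Acta2 stood at -1.12, -1.18 and -1.28 in controls and at -0.83, -1.24 and -1.17 in mutants, a difference of 0.12 (exact permutation p = 0.5). For Tagln the corresponding difference was 0.06 (exact permutation p = 0.8), for Myh11 -0.22 (exact permutation p = 0.4) and for Myl9 0.11 (exact permutation p = 0.6). Relative to the endothelial level, which was 5.30, 5.17 and 6.30 in controls and 5.24, 5.39 and 5.65 in mutants, Acta2 differed by 0.33 (exact permutation p = 0.4), Tagln by 0.27 (exact permutation p = 0.5), Myh11 by -0.014 (exact permutation p = 0.9) and Myl9 by 0.32 (exact permutation p = 0.3). These 10 relative differences, of which Cnn1 had -0.03 and 0.18, each had overlapping groups. Adjusted over the 10 by Benjamini-Hochberg, each exact permutation p was 0.9. Because log2(FPKM + 1) of Cnn1 was near 0 in each library, its relative differences mostly reflect the reference levels.

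**Figure D3:**
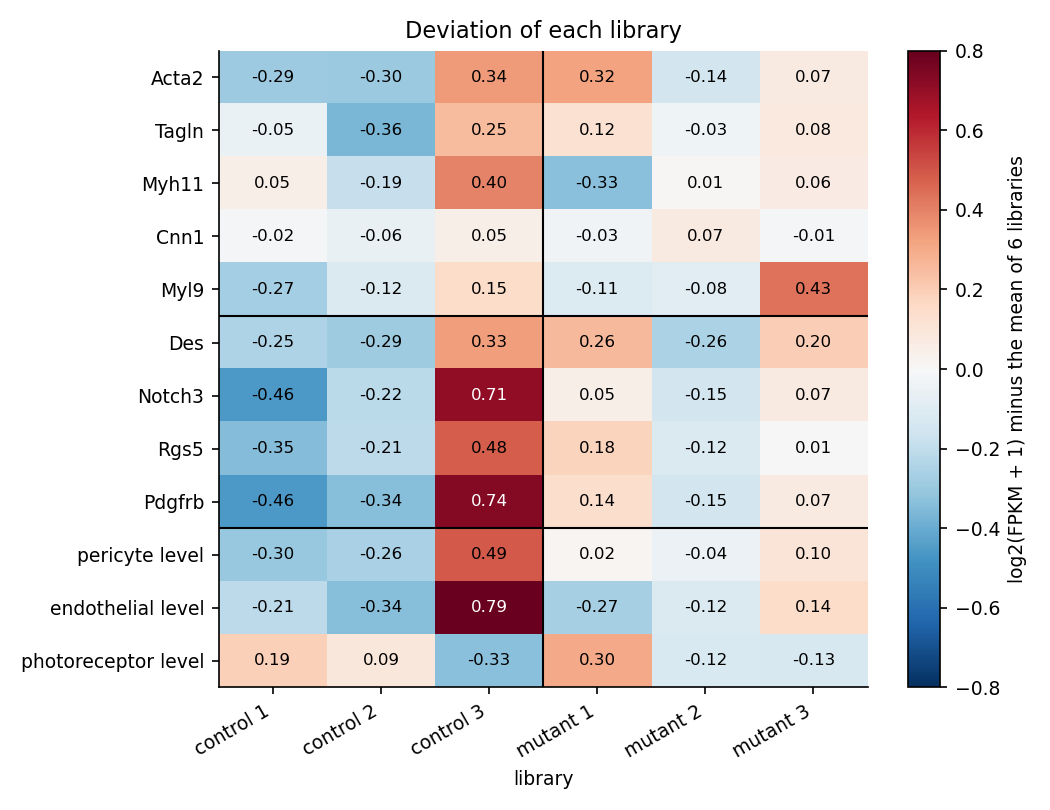
Deviation of each library from the mean of the 6 libraries, on the log2(FPKM + 1) scale, for the 5 contractile genes, 4 mural genes and 3 marker levels. Red is above and blue below the mean. Acta2 and Des share the pattern of high control 3 and mutant 1, with smaller rises of Rgs5 (0.18) and Pdgfrb (0.14) in mutant 1. Myh11 is lowest in mutant 1 (-0.33), and Myl9 is highest in mutant 3 (0.43).

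Likeness between profiles was measured as the root-mean-square difference of log2(FPKM + 1) values over the 6 libraries, each gene centred on its own mean. It is a description only, because the libraries differ in genotype, depth and marker levels. The genes nearest to Acta2 were Thbs2, Tk1 and Zfp703, at 0.049 to 0.065, where the median gene stood at 0.304. Des, the intermediate filament protein of muscle and mural cells, ranked 7 of 13620 genes at 0.075, Rgs5 ranked 13 at 0.097 and Pdgfrb ranked 422 at 0.191. For Tagln the same genes ranked 570, 1356 and 8390, the last at 0.262 and so beyond the median gene at 0.243. The measure also counts the size of a deviation. Tagln and Pdgfrb deviated in the same direction in each library, but in control replicate 3 by 0.25 and 0.74. Acta2 and Tagln were the closest pair of members, at 0.14, and Acta2 and Myh11 the farthest, at 0.31. For Myh11, Des ranked 8677 of 13621 genes and the endothelial gene Pecam1 ranked 2766. For Myl9, Des ranked 2993 of 13620. The 10 genes nearest to the mean profile of the 5 members were Pcdh19, Nde1, Ttl, Mcm5, Map2k3, Aspm, Cd320, Ccnb1, F2rl3 and Sdc1, at 0.018 to 0.046, where the median over 13618 genes was 0.208 and Des ranked 3212. The individual members lay 0.090 to 0.17 from that mean profile, so these genes resemble the average more than any member does. Nde1 ends 1606 bases from Myh11 on chromosome 16, on the opposite strand.

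Each contractile gene belongs to a family with members that most cells use, and the smooth muscle form was a small share of each family. Acta2 made up 0.342% to 0.5503% of the summed FPKM of 6 actin genes, among which the cytoplasmic actin Actb measured 887 to 1285 FPKM. Myh11 made up 0.382% to 0.777% of 4 myosin heavy chains, beside the nonmuscle form Myh9 at 68.0 to 131 FPKM. Tagln made up 1.84% to 2.99% of the transgelins, beside Tagln2 at 35.5 to 57.4 FPKM. Cnn1 made up at most 0.130% of the calponins, beside Cnn3 at 51.6 to 66.9 FPKM. Myl9 had the largest share, 10.02% to 14.7% of 3 regulatory light chains, beside the near-identical nonmuscle forms Myl12a at 35.4 to 49.4 FPKM and Myl12b at 47.7 to 55.4 FPKM.

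**Figure D4:**
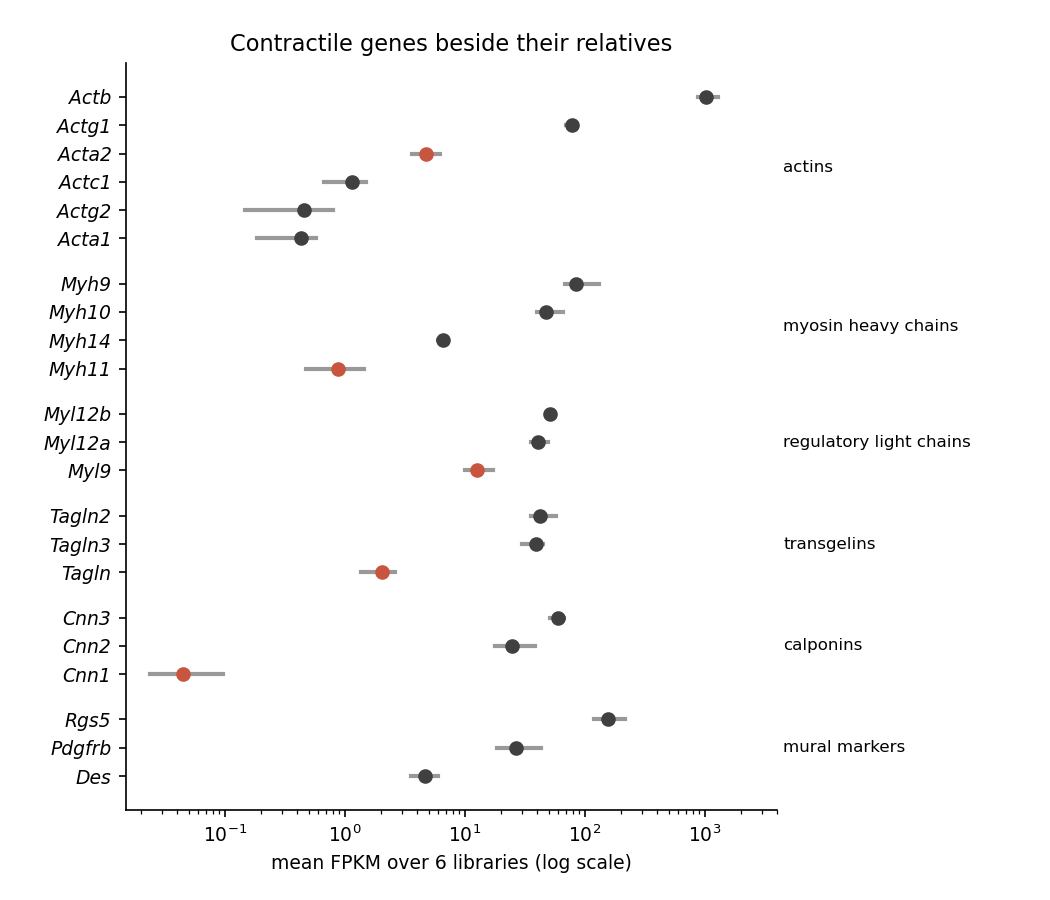
Mean FPKM over the 6 libraries on a log axis for the 5 contractile genes (red) beside the other members of their families and 3 mural markers (dark). Grey lines run from the lowest value above 0 to the highest library (Cnn1 was at 0 in control replicate 2); each red gene lies below the nonmuscle forms of its family, by least for Myl9.

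These shares did not separate the genotypes either. The Acta2 share was 0.355%, 0.342% and 0.448% in the controls by replicate number and 0.5503%, 0.428% and 0.424% in the mutants, a mean of 0.381% ± 0.0577 against 0.467% ± 0.0718 (SD, n = 3 each, exact permutation p = 0.3). Mutant replicate 1 was highest, and control replicate 3 lay above mutant replicates 2 and 3. The Tagln share was 2.26% ± 0.393 and 2.64% ± 0.342 (SD, n = 3 each, exact permutation p = 0.4), that of Myl9 11.3% ± 1.20 and 12.5% ± 1.98 (exact permutation p = 0.5), that of Myh11 0.674% ± 0.125 and 0.568% ± 0.165 (exact permutation p = 0.5) and that of Cnn1 0.0379% ± 0.0370 and 0.0675% ± 0.0548 (exact permutation p = 0.6). All 5 are two-sided, and adjusted over the 5 by Benjamini-Hochberg each exact permutation p was 0.6. Of windows of 50 bases in the principal transcript, 0.353% in Acta2 and 0.400% in Myh11 also occurred in transcripts of another gene, and 0% in Tagln, Cnn1 and Myl9, so exact sharing of reads at that length would be small.

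Partners of the contractile filaments were unevenly represented. Of 16 filament partner genes 14 were tested, 8 were higher and 6 lower in mutants, none passed, and the median difference was 0.01. In controls against mutants, Cald1 (caldesmon, an actin-binding regulator) averaged 31.0 ± 7.39 against 29.5 ± 2.36 FPKM (SD, n = 3 each), and Smtn (smoothelin) 19.2 ± 10.2 against 18.1 ± 3.69 FPKM. Des measured 4.43 ± 1.37 and 4.91 ± 1.08 FPKM, and the muscle tropomyosin Tpm2 1.36 ± 0.364 and 1.64 ± 0.265 FPKM. The actin-binding protein Synpo2 measured 2.55 to 3.52 FPKM. Actg2, the enteric smooth muscle actin, at 0.147 to 0.794 FPKM and the filament nucleator Lmod1 at 0.0419 to 0.321 FPKM were the 2 genes of this list under the filter. Of this list, 9 of the 14 tested genes were highest in control replicate 3, as were 24.4% of all tested genes.

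The list of contraction switch genes, with kinases, phosphatase subunits, channels and receptors, was represented by 13 genes above the filter. Of its 16 genes, the 13 tested split into 7 higher and 6 lower in mutants, none passed, and the median difference was 0.00. Mylk, the kinase that phosphorylates the light chain, measured 16.7 ± 1.11 and 17.3 ± 1.69 FPKM (SD, n = 3 each). Prkg1, the cGMP-dependent kinase of relaxation, measured 12.04 ± 1.15 and 13.3 ± 1.14 FPKM. Its log2 difference was 0.14 (standard error 0.111, limma adjusted p = 1). The smooth muscle channel subunit Kcnmb1 reached at most 0.397 FPKM.

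Among 12 regulators of the contractile programme, all tested, 4 were higher and 8 lower in mutants, none passed, and the median difference was -0.06. Srf averaged 12.6 ± 0.940 FPKM among controls and 11.9 ± 0.146 FPKM among mutants (SD, n = 3 each), and Myocd, which encodes myocardin, 1.51 ± 0.171 and 1.48 ± 0.539 FPKM. Myocd was highest in mutant replicate 1, at 2.10 FPKM, the library with the highest mutant Acta2 value and the lowest Myh11 value. Mkl2, a myocardin-related coactivator, measured 16.2 ± 5.55 and 13.5 ± 0.306 FPKM, and Klf4, a repressor of the contractile programme, 5.08 ± 2.29 and 3.92 ± 0.427 FPKM. Notch3, the mural cell Notch receptor, measured 13.7 ± 6.74 and 12.7 ± 1.10 FPKM, with control replicate 3 at 21.4 FPKM. Among 15 relatives of the members 13 were tested, 4 were higher and 9 lower, none passed, and the median difference was -0.05.

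Markers of the cells that could carry the contractile genes were set beside them. None of 12 pericyte markers was at 0 throughout, with Pdgfrb at 18.4 to 43.5 FPKM, Kcnj8 at 9.74 to 17.2 FPKM and Abcc9 at 14.2 to 28.7 FPKM. Their summed level was 225 to 412 FPKM among controls and 266 to 312 FPKM among mutants, against 16.6 to 24.1 and 18.6 to 25.1 FPKM for the 5 contractile genes. Of the 11 pericyte markers tested 8 were higher and 3 lower, none passed, and the median difference was 0.05. All 8 arterial endothelial markers had a negative difference and none passed, with a median of -0.16, and all 8 were highest in control replicate 3. The 14 general endothelial markers did the same, with a median of -0.16, where 7153 of all 13622 tested genes had a negative difference. Among the arterial markers was Gja5, the arterial connexin, at 1.33 ± 0.422 FPKM among controls and 1.001 ± 0.311 FPKM among mutants (SD, n = 3 each). The general endothelial markers summed to 627 to 1417 FPKM among controls and 669 to 940 FPKM among mutants. Skeletal muscle markers were mostly near 0, with 14 of 15 under 1 FPKM in every library and Myh4 at 0 throughout. The exception was Mylpf, at 1.23 to 2.52 FPKM with a log2 difference of 0.26 (standard error 0.188). The list summed to 3.13 to 3.88 FPKM among controls and 3.83 to 4.64 FPKM among mutants. Of 8 fibroblast markers Lum and Dpt were at 0 in every library and Dcn reached at most 0.148 FPKM, while Col3a1 measured 8.53 ± 2.83 and 9.50 ± 2.56 FPKM, and the list summed to 15.3 to 24.6 and 14.9 to 21.8 FPKM. No tested gene of these lists had an unadjusted limma p under 0.05. The part of these cells in the contractile gene levels was not tested.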

How the data were processed

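Expression was compared between 3 control and 3 mutant libraries, grouped by the genotype in the labels. The authors deposited gene-level FPKM, already normalized, in 1 table. The submitters' processing notes name Cufflinks 2.2.1, DESeq2, STAR 2.5.0b and bedtools 2.17.0, without their roles, and the mm10 build. The gene annotation, any filter and the use of strand are not stated in them. Whole reads were recovered from the FPKM values with depths from miRNA gene lengths (473 of 504 gave the same depth). Each of the 16491 rows above 0 throughout gave whole reads (tolerance 0.001 reads, rising with the count, and 0.02 where the gene length was searched for). Counting intervals cover counting error only.

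In R 4.3.3, limma 3.58.1 with its trend option was fitted to log2(FPKM + 1) of 13622 genes at or above 1 FPKM in at least 3 of 6 libraries, two-sided, with Benjamini-Hochberg adjustment over all genes. This scale understates changes of low genes. Sequences came from RefSeq and positions from GENCODE M21. Python 3.11.15, numpy 2.4.6, pandas 2.3.3, scipy 1.17.1 and matplotlib 3.10.9 were used. The members and gene lists were chosen with earlier results of these data known. Named were the members, Anxa3, set partner genes, up to 3 genes per list with the smallest p, and the 10 nearest profiles. Settings tried were another pseudocount, filter, normalization, prior, blocks, weights, covariates and the omission of each library, and, added after the data were seen, limma voom on the recovered reads.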

Additional observations from a re-analysis of the deposited data

How the results depend on the processing

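Acta2, Tagln and Myl9 passed under none of the 18 alternatives run. Myh11 and Cnn1 were tested only in the fit without the filter, where neither passed. The count of genes called was 0 in each alternative except library weights, which gave 145 genes, none of them a tested member. The Acta2 difference stayed positive in all 18 (0.05 to 0.38 over single omitted libraries) and that of Anxa3 negative (-1.15 to -0.53). Tagln ran from -0.042 (without control replicate 2) to 0.27, Myl9 from -0.016 (without mutant replicate 3) to 0.27, Myh11 from -0.31 to -0.02 and Cnn1 from -0.0088 (without mutant replicate 2) to 0.050. With a pseudocount of 0.1 and with voom, Tagln stood at 0.17 and 0.19 and Myh11 at -0.33 and -0.32. Myh11 turned to 0.11 with library weights, a setting in which control replicate 2 and mutant replicate 2 weighed most. Cnn1 became 0.17 with a pseudocount of 0.1, 0.11 with library weights, -0.0024 with the letters A to C and D to F as a block and 0.77 with voom, all on 15 reads. Same-numbered libraries deviated from their group means with correlations of 0.25, -0.15 and 0.39. Control replicates 1 and 3 correlated best with the mutant of the same number, and control replicate 2 with mutant replicate 1, at 0.23. Deviations from the mean of 3 libraries constrain one another, so these values do not settle whether the numbers pair the libraries. With the replicate block 0 of the 3 tested members were called and Acta2 stood at 0.17. Depth limits Cnn1, while the other members vary between libraries by more than counting error in at least 1 group.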
